A study of Mus musculus with 202 samples.

Results

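The double-stranded RNA sensors and the Oas1 genes of the oocyte, 9 of the 23995 gene symbols in the count table, were followed in single mouse oocytes. The 9 genes are the sensors Tlr3, Ddx58 (RIG-I) and Ifih1 (MDA5), the adaptor Mavs, the kinase Eif2ak2 (PKR), and Oas1c, Oas1d, Oas1e and Oas1h, 4 genes of the Oas1 family. They were chosen by symbol with earlier results of the same data known, so their levels below are a description. All 9 symbols had a line in the count table.

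Each library was 1 oocyte of a C57Bl/6J mouse at metaphase II, the arrest before fertilisation, sequenced by Smart-seq2, a full-length method for single cells. Generations F1, F2 and F3 descended from F0 females given a control diet (CD) or a diet rich in fat and sugar (HFHS), together with vehicle (Veh) or the androgen dihydrotestosterone (DHT). The diet and hormone were those of the F0 female, and group names below refer to it. Libraries with at least 100000 gene counts and 4000 detected genes were kept, 157 of 202. In F1 these were 13 of 15 HFHS+DHT, 8 of 15 CD+DHT, 14 of 15 HFHS+Veh and 10 of 15 CD+Veh oocytes. In F2 they were 5 of 5 HFHS+DHT, 25 of 25 CD+DHT (5 animals), 20 of 20 HFHS+Veh (4 animals) and 16 of 20 CD+Veh oocytes (4 animals). In F3 they were 13 of 24 CD+DHT, 13 of 24 HFHS+Veh (2 animals) and 20 of 24 CD+Veh oocytes. Animal numbers were read from the sample titles, and groups without a count of animals had none in their titles. For 36 samples the characteristics contradicted the title that set the group. All 15 F1 HFHS+Veh and all 5 F2 HFHS+DHT samples named the other hormone treatment, while 8 F2 HFHS+Veh and 8 F3 HFHS+Veh samples named another generation. Values without the contradictory oocytes are given beside the results that they move most. For F1 HFHS+Veh and F2 HFHS+DHT no oocyte remains without them, so no such value exists.

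Kept libraries held 133654 to 16359078 gene counts (median 2122239) and 4603 to 13419 detected genes (median 9102). All 12 oocyte markers had a median of at least 10 CPM (counts per 1000000 gene counts), led by Gdf9 at 5124 CPM, while all 9 immune cell markers measured had a median of 0. The library of F3 CD+Veh oocyte 21 stood apart, with a summed oocyte marker level of 158 CPM and a summed cumulus and granulosa marker level of 62112 CPM. It also had the lowest Oas1d (58.1 CPM), Oas1e (19.37 CPM) and Oas1c (3.23 CPM) of all kept oocytes.

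Double-stranded RNA, a product of many viruses and of transposable elements, is read in mammalian cells by several routes. Tlr3 detects it in endosomes, and Ddx58 and Ifih1 detect it in the cytosol and signal through Mavs on mitochondria to induce interferon. Eif2ak2 phosphorylates the translation factor eIF2 when it binds such RNA, and oligoadenylate synthetases make a second messenger of linked adenylates. The mouse carries a family of Oas1 genes, of which Oas1a and Oas1g encode active synthetases, whereas Oas1d is expressed mainly in oocytes and lacks synthetase activity. Mammalian oocytes also use double-stranded RNA in the endogenous small interfering RNA pathway, which depends on Dicer1.

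The 4 oocyte Oas1 genes lie within 1 cluster of 8 Oas1 genes on chromosome 5 (chr5:120786226-120921652, 135 kb, GENCODE vM21 on GRCm38). Oas1e (120786226 to 120795530, minus strand) and Oas1d (120914536 to 120921652, plus strand) stand at its 2 ends. Oas1c (120800194 to 120812514, minus strand) starts 121 bp from Oas1b in a head-to-head arrangement, and Oas1h lies at 120861421 to 120873506 on the plus strand. The sensors are elsewhere: Tlr3 on chromosome 8 (45395665 to 45411080), Ddx58 on 4 (40203773 to 40239828) and Ifih1 on 2 (62595798 to 62646255). Mavs lies on chromosome 2 (131234063 to 131248025) and Eif2ak2 on 17 (78852564 to 78882573).

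Promoter sequences are shown for a pair of genes at or near 0 in oocytes (Ifih1, Eif2ak2) and a pair that every or nearly every oocyte expressed (Oas1c, Oas1h). They are RefSeq sequences on GRCm38.p6, 250 bases before and 50 bases after the annotated start, read on the gene's own strand. The positions are chr2:62646206-62646505 (minus) for Ifih1, chr17:78882523-78882822 (minus) for Eif2ak2, chr5:120812465-120812764 (minus) for Oas1c and chr5:120861172-120861471 (plus) for Oas1h. Capitals mark matches to a core of the interferon response element, GAAA followed by any 2 bases and GAAA, or on the other strand TTTC followed by any 2 bases and TTTC.

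Ifih1: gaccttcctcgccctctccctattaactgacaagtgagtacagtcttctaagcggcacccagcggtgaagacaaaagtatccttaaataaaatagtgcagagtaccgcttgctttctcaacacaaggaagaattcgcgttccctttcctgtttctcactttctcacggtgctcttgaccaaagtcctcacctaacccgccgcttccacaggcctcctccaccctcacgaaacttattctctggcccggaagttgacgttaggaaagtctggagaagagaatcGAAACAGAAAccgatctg

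Eif2ak2: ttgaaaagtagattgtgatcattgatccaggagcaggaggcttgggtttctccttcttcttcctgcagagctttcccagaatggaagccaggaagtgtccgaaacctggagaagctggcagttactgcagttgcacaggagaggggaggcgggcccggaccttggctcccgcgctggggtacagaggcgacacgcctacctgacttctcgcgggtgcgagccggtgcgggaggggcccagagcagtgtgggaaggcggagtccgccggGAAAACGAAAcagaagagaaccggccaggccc

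Oas1c: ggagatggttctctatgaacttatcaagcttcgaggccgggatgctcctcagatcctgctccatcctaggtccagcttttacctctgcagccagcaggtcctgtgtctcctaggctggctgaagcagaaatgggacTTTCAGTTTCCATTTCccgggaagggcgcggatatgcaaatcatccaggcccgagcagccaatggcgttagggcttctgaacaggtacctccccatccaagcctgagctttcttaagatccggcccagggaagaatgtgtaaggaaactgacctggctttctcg

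Oas1h: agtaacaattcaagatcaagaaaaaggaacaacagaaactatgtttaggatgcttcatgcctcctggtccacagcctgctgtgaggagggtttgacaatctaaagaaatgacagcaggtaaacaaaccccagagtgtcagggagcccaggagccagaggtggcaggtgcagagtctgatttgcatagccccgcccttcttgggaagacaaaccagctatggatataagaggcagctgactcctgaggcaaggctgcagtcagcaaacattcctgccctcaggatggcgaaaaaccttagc

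Of 32851 promoters in the same table, 3.44% held this motif on either strand. The table held 7 of the 9 genes, and not Oas1d or Oas1e. The motif occurred once in Ddx58 (leftmost base at 2, with the start site at 0), once in Ifih1 (at 32) and once in Eif2ak2 (at 18). Oas1c had 2 overlapping matches at -114 and -108, between its start and the head-to-head start of Oas1b, and closer to the latter. Tlr3, Mavs and Oas1h had none. Among the other Oas1 genes, Oas1a had matches at -20 and -14 and Oas1g at -18 and -12, both overlapping pairs close to the start, and Oas1f had none. The word CANNTG (E-box) was in 72.3% of all promoters, and the homeobox-type word TAATTG, searched on both strands, was in 8.0% of all promoters and in none of these genes. The motif was thus present in Ifih1 and Eif2ak2, at a median of 0, and in Ddx58, with a count in 138 of 157 oocytes. It was also in the Oas1c window, which covers the Oas1b start as well. Oas1c was detected in all 157 kept oocytes, and which of these 2 neighbours the matches belong to was not tested. A match describes letters only.

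The levels of the 9 genes spanned a wide range, compared here in the authors' RPKM (reads per kilobase of transcript, adjusted for library size), which allows for transcript length. Oas1d was highest, with a median of 1913 RPKM over the 157 oocytes (quartiles 1198 and 2940). Oas1e followed at 545 RPKM (291 and 805), then Oas1h at 176 RPKM (138 and 215) and Oas1c at 65.4 RPKM (33.3 and 101). The quartile ranges of these 4 neighbours did not overlap. Mavs had a median of 5.92 RPKM (2.001 and 9.49), Tlr3 of 3.01 RPKM (1.73 and 5.31) and Ddx58 of 1.70 RPKM (0.716 and 2.66), and each of these ranges overlapped that of its neighbour in the order. Eif2ak2 and Ifih1 had a median of 0. On the CPM scale Oas1d ranked 31 among all genes by median (3325 CPM) and Oas1e ranked 138 (929 CPM).

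**Figure D1:**
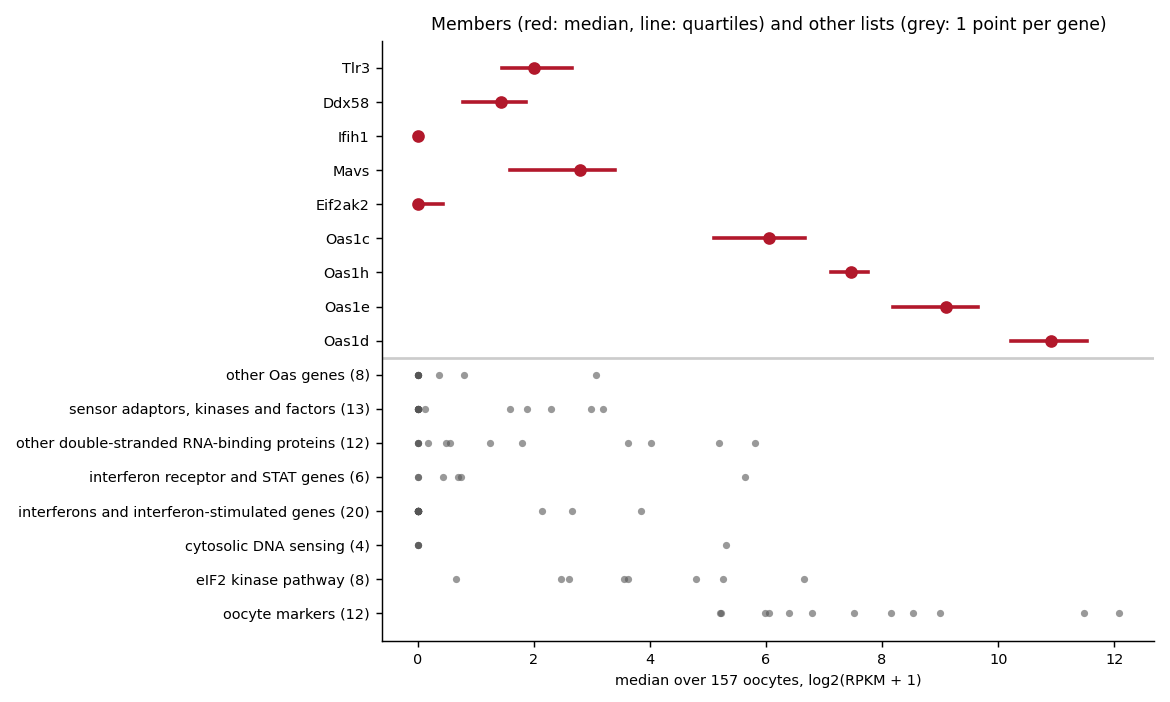
Median level over 157 kept oocytes as log2(RPKM + 1) on the horizontal axis. Red points are the 9 genes with a line from the lower to the upper quartile. Grey points are single genes of the other pathway lists and of the oocyte markers. Among the 9 genes, the 4 oocyte Oas1 genes lie apart at the high end, with medians from 65.4 to 1913 RPKM, and Ifih1 and Eif2ak2 lie at 0.

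Ifih1, the sensor of long double-stranded RNA, had a count in 8 of 157 oocytes (5.1%). The highest was 7.94 CPM in F1 HFHS+DHT oocyte 3, from 12 counts. In 6 of the 11 groups no kept oocyte had a count. A pooled count of 0 allows up to 0.392 CPM in F3 HFHS+Veh, the shallowest of these groups, and up to 0.0446 CPM in F2 CD+Veh, the deepest. Eif2ak2, the kinase that halts translation, had a count in 66 of 157 oocytes (42.04%) and at least 10 CPM in 13. Its highest level was 62.4 CPM in oocyte 4 of F3 HFHS+Veh animal 26, from 22 counts. Tlr3 had a count in 150 of 157 oocytes (95.5%), Mavs in 145 (92.4%) and Ddx58 in 138 (87.9%). Oas1c, Oas1d and Oas1e had a count in all 157, and Oas1h in 156.

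The oocyte Oas1 genes differed in how they varied across groups. Oas1d, on the CPM scale, had in F1 a lowest, median and highest value of 1882, 2604 and 7355 CPM in HFHS+DHT, 1314, 4950.5 and 5711 CPM in CD+DHT, 1489, 5968 and 8984 CPM in HFHS+Veh, and 772, 4593 and 8464 CPM in CD+Veh. In F2 these values were 1513, 2704 and 3623 CPM in HFHS+DHT, 643, 1627 and 6828 CPM in CD+DHT, 205, 2636 and 6322 CPM in HFHS+Veh, and 1219.8, 3133 and 5838 CPM in CD+Veh. In F3 they were 1458, 4253 and 12077 CPM in CD+DHT, 2019, 3104 and 6519 CPM in HFHS+Veh, and 58.1, 4334 and 7887 CPM in CD+Veh. Every pair of groups overlapped. Without the contradictory oocytes the median was 3406 CPM in F2 HFHS+Veh and 3135 CPM in F3 HFHS+Veh.

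Oas1h had the narrowest range of group medians among the 4. On the CPM scale they ran from 185 CPM in F1 HFHS+Veh to 296 CPM in F3 HFHS+Veh (335 CPM without the contradictory oocytes), against 496 to 1547 CPM for Oas1e and 1627 to 5968 CPM for Oas1d. Oas1h was at 0 in oocyte 2 of F2 HFHS+Veh animal 4, which also had the second lowest Oas1d (205 CPM) and the highest Tlr3 (132 CPM, from 56 counts) of all kept oocytes. That library held 424872 gene counts.

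Oas1c was lower in F3 than in the earlier generations. Its medians in F1 were 136 CPM in HFHS+DHT, 195 CPM in CD+DHT and 177 CPM in HFHS+Veh, against 277 CPM in CD+Veh. In F2 the medians were 246 CPM in HFHS+DHT, 161 CPM in CD+DHT and 191 CPM in HFHS+Veh, against 264 CPM in CD+Veh. In F3 they were 70.1 CPM in CD+DHT and 61.5 CPM in HFHS+Veh, against 65.8 CPM in CD+Veh, so all 3 F3 medians lay below all 8 earlier ones. The share of all genes with this pattern of group medians was not computed. Without the contradictory oocytes the HFHS+Veh median was 76.6 CPM in F3 and 210 CPM in F2. Over all kept oocytes the median was 68.6 CPM in F3, 171 CPM in F1 and 197 CPM in F2, a log2 ratio of -1.32 for F3 over F1 and of -1.52 for F3 over F2. Single oocytes still overlapped, with F3 ranging from 3.23 to 284 CPM and F1 from 34.2 to 452 CPM. Beside this, 27.1% of 5316 genes at a median of at least 10 CPM were lower by more than 2-fold in F3 over F1 and 30.4% in F3 over F2, and the median log2 ratio of those genes was -0.26 and -0.30. Mavs had a median of 9.296 CPM in F3, 20.2 CPM in F1 and 19.9 CPM in F2, but with counts pooled over oocytes it was at 19.16 CPM in F3, 20.7 CPM in F1 and 20.7 CPM in F2. The log2 ratio of medians for F3 over F1 was 0.00 for Oas1d, 0.05 for Oas1e and 0.30 for Oas1h. No test was made between generations, since animals are unnamed in most groups. Median detected genes were also lower in F3 groups (7127 to 8225) than in F1 groups (8226 to 10640.5), and their part in these ratios was not tested.

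**Figure D2:**
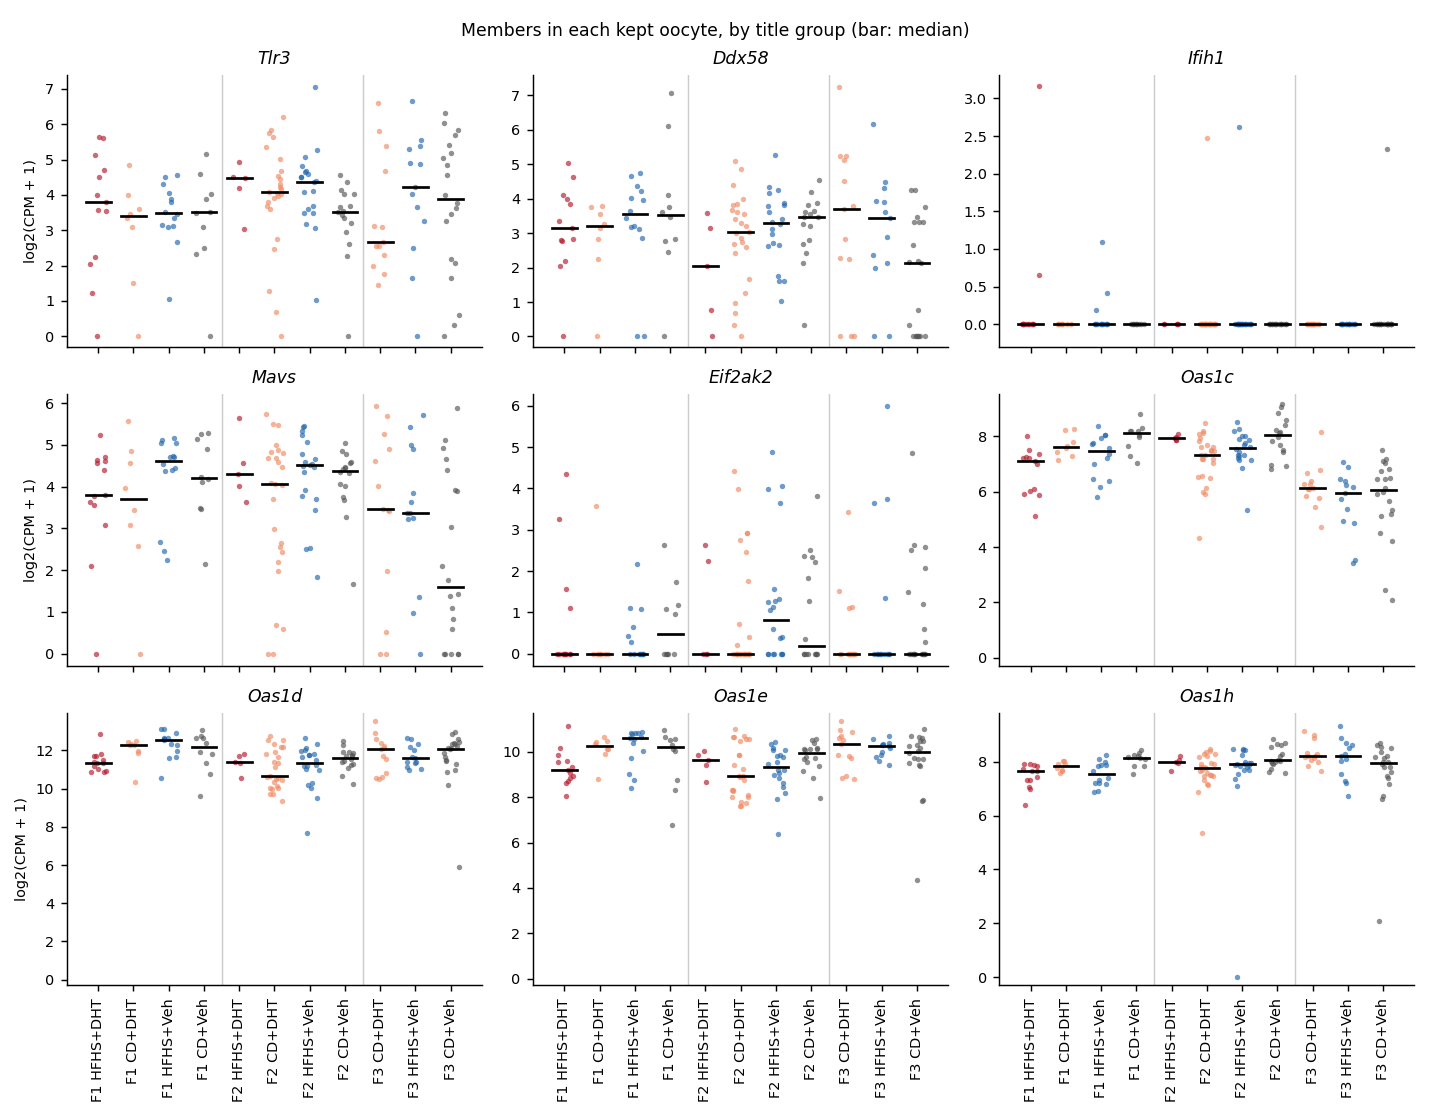
CPM of each gene in every kept oocyte (1 point each) by group, on an axis of log2(CPM + 1), with a bar at the group median. The 3 F3 groups have the lowest medians of Oas1c (61.5 to 70.1 CPM) and of Mavs (2.04 to 10.08 CPM). Oas1d, Oas1e and Oas1h show no such step, and nearly all Ifih1 points lie at 0.

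Oas1d and Oas1e varied together from oocyte to oocyte. Spearman's rho between their CPM was 0.91 over 157 oocytes and between 0.77 and 1 within the 11 groups, as a description of points that share library and depth. Their ratio was narrow, with a median of 0.275 Oas1e counts per Oas1d count and quartiles of 0.228 and 0.306. The SD of the log2 ratio was 0.41, against 1.04 for Oas1e alone and 1.02 for Oas1d alone. The coding sequences of both genes were 90.7% identical and their transcripts shared 65 words of 50 bases, out of 1848 in Oas1e and 1972 in Oas1d. How the authors' counting treated reads that fit both is not given in the sources used here, and its part in this ratio was not tested. Oas1c shared 149 such words with Oas1e and had a rho of 0.34 with it. Oas1h had a rho of 0.22 with Oas1d and 0.36 with Oas1e.

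Oas1c followed the number of genes detected in the oocyte, with a rho of 0.69, compared with 0.43 for Oas1d, 0.43 for Oas1e and 0.14 for Oas1h. Oas1c also shared exon bases with Gm43069 on the opposite strand (227 of 2405), as Tlr3 did with Gm45542 (381 of 5207) and Eif2ak2 with Gm26637 (174 of 5113). Whether strand was used in counting is not given in the sources used here, so reads of these pairs cannot be told apart. The sensors had weak relations with each other, with a rho of 0.06 between Tlr3 and Ddx58 and 0.12 between Ddx58 and Mavs. Mavs had a rho of 0.47 with Oas1c and of 0.49 with the number of genes detected, whose part in the former was not tested.

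**Figure D3:**
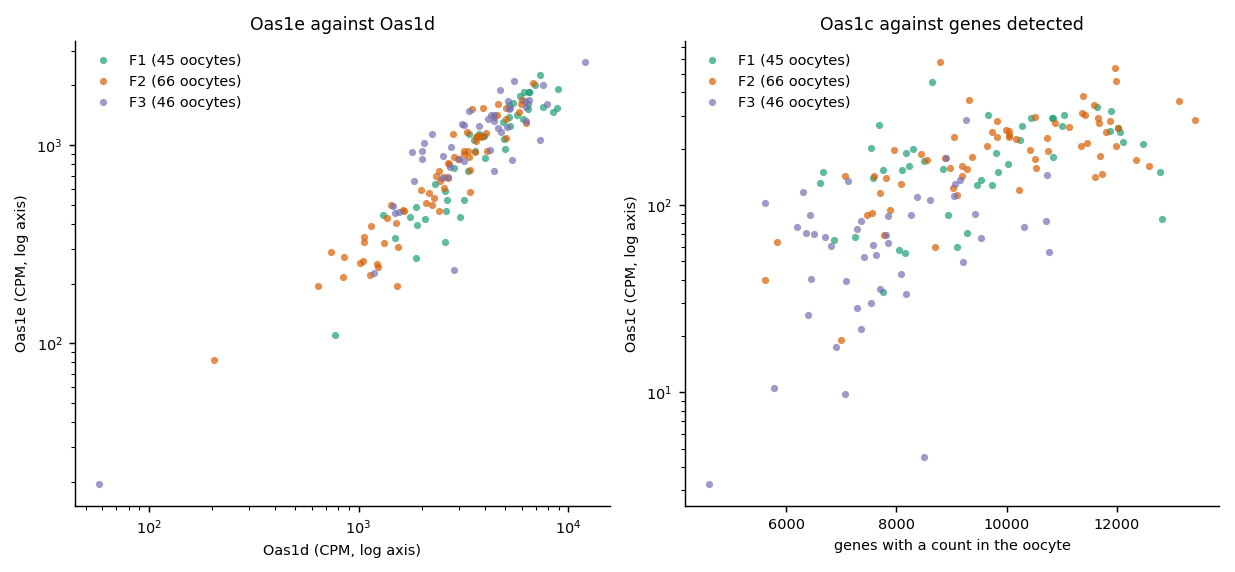
Left, Oas1e against Oas1d CPM per oocyte on log axes, and right, Oas1c CPM on a log axis against the number of detected genes, with 1 point per kept oocyte coloured by generation. Oas1e and Oas1d lie along 1 line (rho 0.91), and Oas1c is higher where more genes were detected (rho 0.69), with F3 oocytes low.

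Across the 5351 genes with a median of at least 10 CPM, the genes most like each gene by rank over 157 oocytes were as follows. For Oas1d they were Tpd52l2 (rho 0.87), Dusp14 (0.84) and Gdf9 (0.84), the last an oocyte growth factor that acts on the follicle. For Oas1e they were Tpd52l2 (0.84), Surf4 (0.83) and Laptm4b (0.82). For Oas1c they were Pex11a (0.82), Anapc16 (0.80) and Csnk1e (0.79), and for Oas1h Glrx (0.70), Cd7 (0.62) and Fam160a1 (0.55). The sensor side had looser likeness: Arf1 (0.57), E2f4 (0.56) and Tle6 (0.55) for Mavs, and Stk24 (0.36), Pcnx (0.32) and Atp6v1a (0.31) for Tlr3. The median rho over all genes was 0.23 for Oas1c, 0.14 for Mavs and 0.08 for Oas1d.

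Many genes in the rest of the pathway had a median of 0, as did most genes of the whole count table. By median CPM, genes at 0 shared rank 9009 among the 23995 gene symbols. Of 20 interferon and interferon-stimulated genes, 17 had a median of 0, and the highest medians were those of Dtx3l (25.799 CPM), Bst2 (10.204 CPM) and Irf1 (6.47 CPM). Of the 8 other Oas genes, 5 had a median of 0, and Oas1b, a truncated gene in many laboratory strains, had 13.53 CPM. The active synthetases Oas1a and Oas1g, named after their values were seen, had a count in 6 and 7 of 157 oocytes. Oas1a and Oas1g shared 1057 words of 50 bases, so their counts are uncertain. Of 13 adaptors, kinases and factors downstream of the sensors, 7 had a median of 0, with Tbk1 (24.7 CPM), Rela (18.8 CPM) and Ripk1 (17.6 CPM) highest. Ticam1, the adaptor of Tlr3, also named after its values were seen, had a count in 23 oocytes.

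Other double-stranded RNA-binding proteins were better represented, with 3 of 12 at a median of 0. Dicer1, which cuts double-stranded RNA into small RNAs, had 541 CPM, and Stau1 had 128 CPM. None of the 8 genes of the eIF2 kinase pathway had a median of 0: Eif2ak1, the heme-regulated kinase, had 252 CPM, Eif2ak4, the amino acid sensor, 136 CPM, and Ppp1r15a, a phosphatase subunit that reverses the phosphorylation, 87.4 CPM. Of 6 interferon receptor and STAT genes 2 had a median of 0, with Jak1 at 236 CPM and Tyk2 at 3.24 CPM. Of 4 genes of cytosolic DNA sensing 3 had a median of 0, and Mb21d1 (cGAS) had 154 CPM.

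F2 was the generation with named animals in 3 groups, so counts were summed per animal and compared with edgeR's quasi-likelihood test over all genes. Of the 8 genes that passed the count filter, 0 passed an adjusted p of 0.05 in any of the 3 comparisons, and 0 of all 11962 genes did (0%). At an unadjusted p under 0.05 there were 220 genes for CD+DHT against CD+Veh, 118 for HFHS+Veh against CD+Veh and 125 for CD+DHT against HFHS+Veh. DESeq2 called 2, 2 and 1 genes in the same order. Ifih1 did not pass the count filter. None of the genes of the other pathway lists was called either. The p-values measure the spread between animals, whose numbers come from the titles.

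Tlr3 had the lowest unadjusted p of the 8 genes by edgeR in CD+DHT and in HFHS+Veh, each against CD+Veh, and missed the adjusted threshold. In CD+DHT animals 6, 7, 8, 9 and 17 it was at 16.99, 16.5, 42.8, 11.7 and 18.1 CPM. In HFHS+Veh animals 4, 5, 10 and 19 it was at 18.998, 19.8, 17.7 and 18.5 CPM, and in CD+Veh animals 2, 3, 13 and 14 at 10.16, 14.8, 11.2 and 7.38 CPM. All 4 HFHS+Veh animals lay above all 4 CD+Veh animals, whereas CD+DHT animal 9 lay within the CD+Veh range and animal 8 above every other animal. The mean was 21.2 ± 12.3 CPM in CD+DHT (SD, n = 5), 18.8 ± 0.894 CPM in HFHS+Veh (SD, n = 4) and 10.9 ± 3.07 CPM in CD+Veh (SD, n = 4). The log2 fold change of CD+DHT over CD+Veh was 1.14 (SE 0.34), with an unadjusted p of 0.00411 and an adjusted p of 0.9999 by edgeR (0.773 to 1 over the alternatives), and it was 0.68 without CD+DHT animal 8. By limma on oocyte means the lowest unadjusted p in that comparison was that of Oas1c (0.0229, log2 fold change -0.87, adjusted p 0.743), against 0.247 for Tlr3. The log2 fold change of Tlr3 in HFHS+Veh over CD+Veh was 0.87 (SE 0.35), with an unadjusted p of 0.0246 and an adjusted p of 0.99997 by edgeR, and 0.87 without the oocytes of contradictory labels, which leaves 3 HFHS+Veh animals. There limma gave the lowest unadjusted p to Oas1h (0.0487, log2 fold change -0.67, adjusted p 0.999), against 0.125 for Tlr3. Tlr3 was the 1 gene of the 8 whose animals did not overlap between HFHS+Veh and CD+Veh. Among all genes tested, 0.301% did not overlap and were higher, and 0.853% did not overlap and were lower. Between CD+DHT and CD+Veh (0.184% higher, 0.752% lower) and between CD+DHT and HFHS+Veh (0.226% higher, 0.435% lower), 0 of the 8 did so.

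For Oas1d and Oas1e the SD among animals of a group exceeded the differences between group means. Oas1d was at 4628, 3473, 1816, 1047 and 5084 CPM in CD+DHT animals 6, 7, 8, 9 and 17, at 3793, 3187, 1359 and 3829.9 CPM in HFHS+Veh animals 4, 5, 10 and 19, and at 3895, 2719, 3121 and 2657 CPM in CD+Veh animals 2, 3, 13 and 14. The 3 lowest values were those of CD+DHT animals 8 and 9 and HFHS+Veh animal 10, and the groups overlapped. Oas1e was lowest in the same 3 animals, at 448, 251 and 387 CPM. These animals also had the fewest detected genes per oocyte (median 7956, 7771 and 8447) and the lowest oocyte growth factor Gdf9 (4548, 2312 and 2432 CPM), against 4912 CPM or more of Gdf9 in the other 10 animals. All oocytes of HFHS+Veh animal 10 had contradictory labels. The part of either in the Oas1 levels was not tested.

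Oas1c was at 244, 175, 145, 67.9 and 281 CPM in CD+DHT animals 6, 7, 8, 9 and 17, at 219.9, 199, 215 and 258 CPM in HFHS+Veh animals 4, 5, 10 and 19, and at 341, 385, 224 and 137 CPM in CD+Veh animals 2, 3, 13 and 14. CD+Veh held the 2 highest animals but also the second lowest of all 13. Of the variance of log2(CPM + 1) over 61 oocytes, 51.9% lay between the 13 animals for Oas1c, a larger share than for 97.1% of 5357 genes. The share was 34.5% for Oas1e, 25.11% for Oas1d and 3.38% for Oas1h. Oas1h was at 0 CPM in oocyte 2 of HFHS+Veh animal 4, whose part in its share was not tested. The SD of its log2(CPM + 1) over oocytes was 1.81 in HFHS+Veh, 0.65 in CD+DHT and 0.40 in CD+Veh. Differences between groups count as between animals in these shares. Oas1c had a rho of 0.69 with the number of genes detected over all kept oocytes, whose part in its share was not tested. For CD+DHT over CD+Veh the log2 fold changes were -0.42 (SE 0.29) for Oas1c, 0.12 (SE 0.35) for Oas1d, -0.01 (SE 0.40) for Oas1e and -0.24 (SE 0.18) for Oas1h. For HFHS+Veh over CD+Veh they were -0.15 (SE 0.30), -0.02 (SE 0.37), -0.25 (SE 0.42) and -0.13 (SE 0.19) for the same 4 genes, and none passed.

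For the remaining genes the group means lay within an SD of each other. Ddx58 averaged 9.70 ± 4.44 CPM in CD+DHT (SD, n = 5), 10.9 ± 2.23 CPM in HFHS+Veh (SD, n = 4) and 8.96 ± 2.19 CPM in CD+Veh (SD, n = 4). Mavs averaged 19.8 ± 8.04 CPM, 21.9 ± 7.98 CPM and 19.42 ± 4.83 CPM in CD+DHT, HFHS+Veh and CD+Veh animals. Eif2ak2 averaged 3.04 ± 2.36 CPM in CD+DHT and 2.62 ± 3.23 CPM in HFHS+Veh, against 2.097 ± 1.47 CPM in CD+Veh animals, so its SD was of the size of its mean. With counts pooled over oocytes Eif2ak2 was at 1.97 CPM in HFHS+Veh, and at 0.915 CPM without the contradictory oocytes. Summed over all animals of a group, Ifih1 had 14 counts in CD+DHT (all in 1 oocyte of animal 9), 33 in HFHS+Veh (all in 1 oocyte of animal 5) and 0 in CD+Veh. The oocyte of animal 5 had contradictory labels, and without such oocytes HFHS+Veh had 0.

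**Figure D4:**
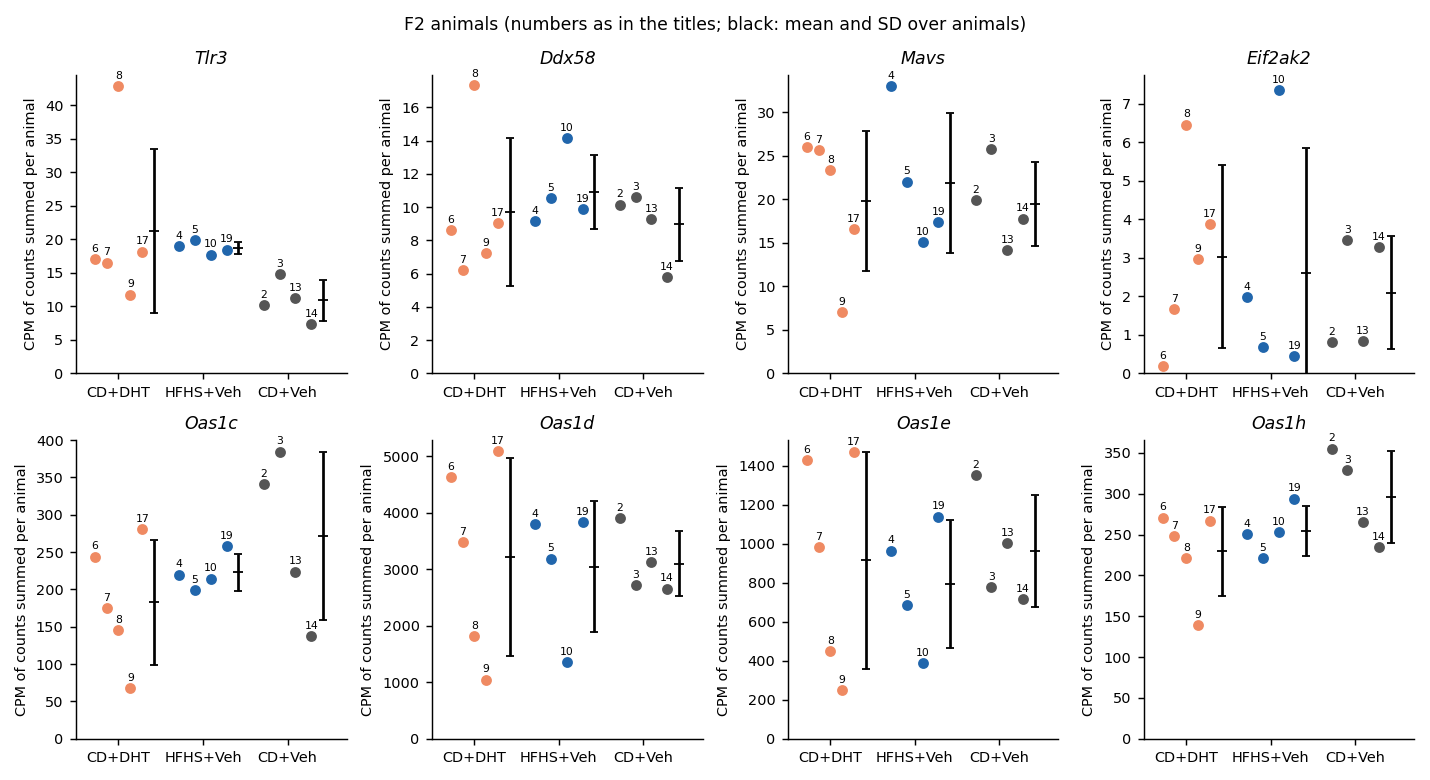
CPM of summed counts in each F2 animal (points with the animal number of the title) for 8 genes, in CD+DHT, HFHS+Veh and CD+Veh, with the mean and SD over animals in black, on linear axes that start at 0 (the bar of Eif2ak2 in HFHS+Veh runs below it). All 4 HFHS+Veh animals have more Tlr3 than any CD+Veh animal, and CD+DHT animals 8 and 9 and HFHS+Veh animal 10 are low in Oas1d and Oas1e.

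In F1 no title named an animal, so each group was 1 sample: counts were pooled over oocytes and no test was made. Square brackets hold the exact Poisson 95% interval of a pooled value, which covers counting error only. Of the 7 genes at a mean of at least 5 CPM, 0 were past 2-fold in any of the 4 comparisons. Across all genes the share past 2-fold was 3.76% for HFHS+DHT against CD+Veh, 3.74% for HFHS+DHT against HFHS+Veh, 3.94% for CD+DHT against CD+Veh and 3.35% for HFHS+Veh against CD+Veh. Oas1c came nearest, at 158 CPM [152, 164] in HFHS+DHT and 281 CPM [274, 288] in CD+Veh, a log2 ratio of -0.83. It was -1.08 without F1 HFHS+DHT oocyte 10, so that 1 oocyte moves it across the 2-fold line. Tlr3 was at 18.9 CPM [16.9, 21.05] in HFHS+DHT and 11.1 CPM [10.12, 12.1] in HFHS+Veh (log2 ratio 0.77), and at 12.6 CPM [11.2, 14.16] in CD+Veh. Mavs was at 21.3 CPM [18.2, 24.7] in CD+DHT and 17.9 CPM [16.2, 19.7] in CD+Veh (log2 ratio 0.25), and the ratio was -0.69 without F1 CD+DHT oocyte 2.

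Cumulus and granulosa markers, signs of somatic cells beside the oocyte, differed between these F1 groups. Their summed level ran from 504 to 3113 CPM in HFHS+DHT, 1051 to 3423 CPM in CD+DHT and 977 to 10051 CPM in HFHS+Veh, against 24.1 to 2711 CPM in CD+Veh. The medians of that sum were 743 CPM in HFHS+DHT, 1429 CPM in CD+DHT and 2343 CPM in HFHS+Veh, against 1261 CPM in CD+Veh, so HFHS+DHT had the lowest. Over all kept oocytes 14 of the 20 markers had a median of 0 and 3 a median of at least 10 CPM. A few genes thus carried most of the sum, and whether the oocyte itself expressed them was not tested. Of the 20 markers, 9, 5 and 9 reached a mean of 5 CPM in HFHS+DHT, CD+DHT and HFHS+Veh, each with CD+Veh, and 6, 2 and 7 of these were past 2-fold higher than in CD+Veh, and their part in the ratios above was not tested.

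In F3 CD+DHT oocytes the pooled levels of the cytosolic sensor Ddx58 and its adaptor Mavs were higher than in CD+Veh oocytes, with no test possible as no animal was named. Ddx58 was at 28.1 CPM [26.59, 29.6] in CD+DHT and 6.92 CPM [6.26, 7.62] in CD+Veh, a log2 ratio of 2.02 [1.86, 2.18]. Single oocytes had a lowest, median and highest value of 0, 12.1 and 151 CPM in CD+DHT and 0, 3.41 and 18.1 CPM in CD+Veh, so the groups overlapped from 0 to 18.1 CPM. Leaving out each oocyte in turn gave log2 ratios from 1.77 to 2.32. Without F3 CD+Veh oocyte 21, the library that stood apart, it was 2.01. Mavs was at 28.1 CPM [26.61, 29.6] in CD+DHT and 12.5 CPM [11.6, 13.43] in CD+Veh (log2 ratio 1.17), and without F3 CD+DHT oocyte 15 the ratio was 0.97, under 2-fold. By the mean of oocyte CPM the Mavs ratio was 0.85. Single oocytes had 0, 10.08 and 59.7 CPM in CD+DHT and 0, 2.04 and 58.0 CPM in CD+Veh. These were 2 of the 7 genes at a mean of at least 5 CPM, beside 7.53% of all 6957 such genes past 2-fold higher and 6.78% past 2-fold lower in this comparison. Oocyte 4 of F3 CD+DHT had the highest Ddx58 (151 CPM), Mavs (59.7 CPM) and Oas1d (12077 CPM) of all kept oocytes.

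Tlr3, the endosomal sensor, was lower in the pool, at 15.5 CPM [14.4005, 16.7] in CD+DHT and 30.7 CPM [29.3, 32.1] in CD+Veh, a log2 ratio of -0.99. Leaving out single oocytes gave log2 ratios from -1.42 (without F3 CD+DHT oocyte 16, at 96.4 CPM) to -0.46, and leaving out any 1 of 14 oocytes took it past 2-fold. The log2 ratio was -0.27 by the mean of oocyte CPM, -1.38 by the median and -0.12 without the largest library of each group. Oas1d had a log2 ratio of 0.34, Oas1e of 0.40, Oas1c of -0.27 and Oas1h of 0.04. Of 20 cumulus and granulosa markers 11 reached a mean of 5 CPM, and 6 of these were past 2-fold lower in CD+DHT, beside 6.78% of all such genes. The summed level of all 20 was 556 to 3328 CPM in CD+DHT and 1327 to 62112 CPM in CD+Veh. Of 9 immune markers 2, Cd68 and Lyz2, reached that mean, and both were past 2-fold higher, beside 7.53% of all such genes. The summed level of all 9 was 0 to 132 CPM in CD+DHT and 0 to 182 CPM in CD+Veh, and each had a median of 0 over kept oocytes. The part of these markers in the ratios was not tested. The largest library held 34.2% of the counts of F3 CD+DHT.

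Ddx58 was also past 2-fold in F3 HFHS+Veh against CD+Veh, the 1 of 7 genes to be so (4.27% of all genes tested were past 2-fold higher and 10.6% lower), at 18.01 CPM [15.1, 21.3] in HFHS+Veh, against 6.92 CPM [6.26, 7.62] in CD+Veh. The log2 ratio of 1.38 rested on 1 oocyte: it was 0.24 without oocyte 7 of F3 HFHS+Veh animal 22, which had 71.6 CPM. Pooled by animal it was at 27.5 CPM in animal 22 and 6.62 CPM in animal 26. All kept oocytes of animal 22 had contradictory labels, and without them the log2 ratio was -0.0625. Oas1c was at 55.7 CPM [50.6, 61.3] in HFHS+Veh, against 91.5 CPM [89.1, 93.9] in CD+Veh (log2 ratio -0.72), and the other genes above 5 CPM had log2 ratios from -0.26 for Tlr3 to 0.26 for Mavs. Without the contradictory oocytes Mavs was at 24.5 CPM in HFHS+Veh, with a log2 ratio of 0.97, Oas1c had a log2 ratio of -0.27 and the others ran from -0.44 for Oas1d to 0.51 for Oas1h. Of 20 cumulus and granulosa markers 10 reached a mean of 5 CPM, and 2 of these were past 2-fold lower in HFHS+Veh.

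**Figure D5:**
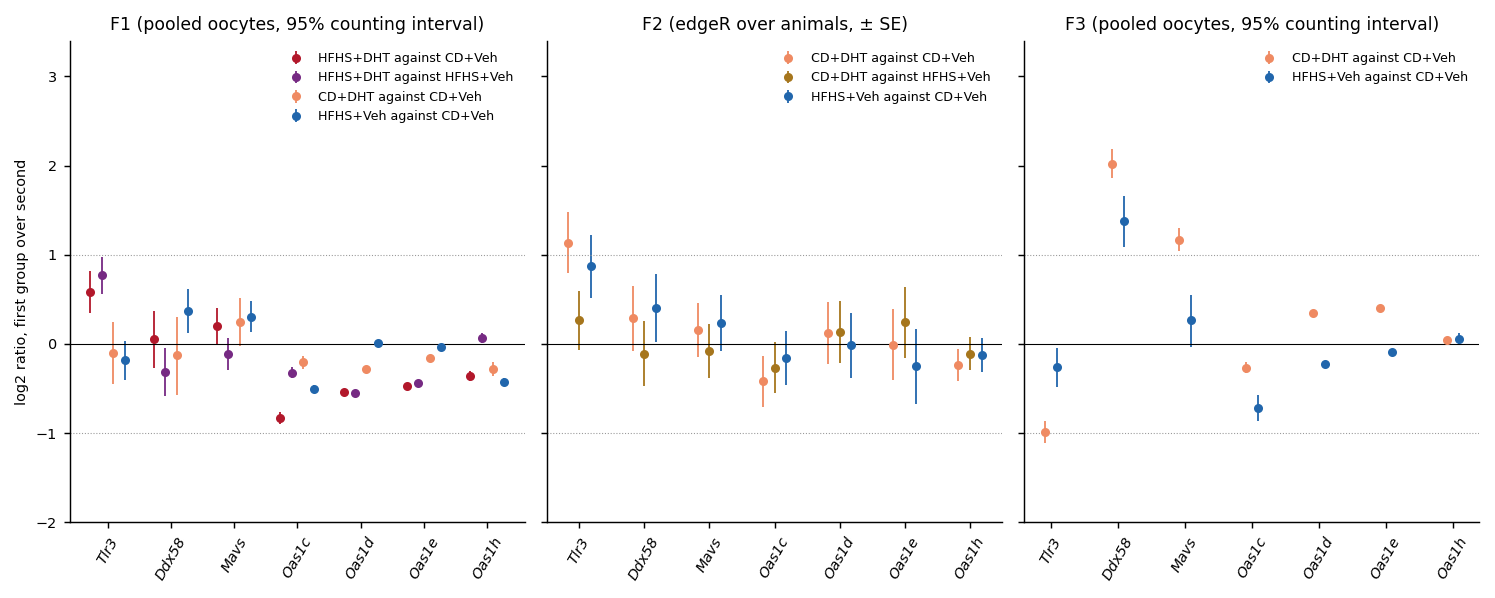
Log2 ratio or log2 fold change of 7 genes in each comparison, with F1 and F3 as ratios of pooled CPM with exact Poisson 95% intervals and F2 as edgeR fold changes with standard errors. Ddx58 and Mavs in F3 CD+DHT against CD+Veh (2.02 and 1.17) and Ddx58 in F3 HFHS+Veh against CD+Veh (1.38) lie past the dotted 2-fold line in F3. In F2 Tlr3 in CD+DHT against CD+Veh lies at 1.14, and no F2 value passed the adjusted threshold.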

How the data were processed

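The authors deposited raw counts per gene symbol and a table of RPKM for 202 single-oocyte libraries, and no column of another series was used (0). Per the submitters' processing notes, STAR 2.4.2a, Seurat 2.0 and the build mm10 were used. How reads were assigned to genes (the program, annotation, lengths and strand setting) is not given in the sources used here. Of 24582 lines, 92 spike-in lines and 1 further non-gene line were left out, and 494 repeated lines were summed. Groups came from the sample titles, which the characteristics contradicted for 36 samples. The genes and the pathway lists were chosen with earlier results of these data known, and 3 genes of those lists are not reported here.

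Counts were scaled to 1000000 gene counts per oocyte (CPM) in libraries with at least 100000 gene counts and 4000 genes (157 kept, 45 left out). F2 counts were summed per animal and tested with edgeR 4.0.16 (quasi-likelihood, TMM, filterByExpr, R 4.3.3) across all genes in 3 groups, at a Benjamini-Hochberg adjusted p under 0.05. The procedure was tested on simulated data. F1 and F3 counts were pooled per group and described by exact Poisson 95% intervals, with a fold named past 2 at a mean of at least 5 CPM and a count of 0 limited by 3 counts. Without molecular identifiers PCR copies are not independent molecules, so intervals and floors cover counting error only. All 9 genes are described. Of the other lists at most 3 genes with the highest median are named, and by likeness the 3 genes with the highest Spearman rho for each gene at a median of at least 10 CPM. Alternatives were DESeq2 1.42.0, its size factors, limma 3.58.1 on log2(CPM + 1) means, no count filter, a stricter oocyte filter (500000 counts, 6000 genes), means or medians over oocytes, RPKM, and leaving out animals, single oocytes, the largest libraries, contradictory labels or oocytes with cumulus markers beyond 1.5 interquartile ranges above the upper quartile. Python 3.11.15, numpy 2.4.6, pandas 2.3.3, scipy 1.17.1 and matplotlib 3.10.9 were used.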

Additional observations from a re-analysis of the deposited data

Results flagged for a closer look

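In 50 groups of 4 to 10 animals or oocytes the highest and lowest value were compared with the nearest other value. A rate of about 5% by chance holds for normally distributed values, which CPM with many zeros are not. Where all other values are 0, any value above 0 is singled out, so the number found is not set against that rate. The comparison singled out 8 values. Among F2 CD+DHT animals, Tlr3 at 42.8 CPM in animal 8 lay apart from the others (11.7 to 18.1 CPM), as did Ddx58 at 17.38 CPM in the same animal (others 6.21 to 9.04 CPM). Ifih1 was at 1.76 CPM in F2 HFHS+Veh animal 5 and at 1.34 CPM in F2 CD+DHT animal 9, with 0 in the other animals of each group. Each rests on 1 oocyte, that of animal 5 with contradictory labels. In F1, Ddx58 was at 133 CPM in CD+Veh oocyte 7, from 23 counts, against at most 68.9 CPM in the others. Eif2ak2 was at 10.9 CPM in F1 CD+DHT oocyte 11 (others 0) and at 5.24 CPM in F1 CD+Veh oocyte 1 (others at most 2.35 CPM). Oas1d was at 1314 CPM in F1 CD+DHT oocyte 11, against 3766 to 5711 CPM in the others.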

How the results depend on the processing

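No paired analysis was possible because the shared numbers in F1 and F3 titles count oocytes and the F2 animal numbers differ between groups. In F2 the other edgeR settings, limma and each animal left out called 0 genes, while DESeq2 called 2 for CD+DHT against CD+Veh, 2 for HFHS+Veh against CD+Veh and 1 for CD+DHT against HFHS+Veh. None of the genes described passed an adjusted p of 0.05 under any alternative. For F1 HFHS+DHT against CD+Veh the count past 2-fold was 2 by mean CPM, 2 by median CPM and 2 by mean RPKM instead of 0, and for HFHS+DHT against HFHS+Veh 2 by median CPM. It was 1 by mean CPM and 1 by mean RPKM for CD+DHT against CD+Veh, and likewise 1 and 1 for HFHS+Veh against CD+Veh. By mean CPM, Ddx58 was past 2-fold lower in each of these F1 comparisons with CD+Veh. The F1 CD+Veh mean includes the outlying Ddx58 value of oocyte 7 named above, whose part in these counts was not tested. The share of all genes past 2-fold was not computed under any of these alternatives, in F1 or F3. For F3 CD+DHT against CD+Veh the count was 1 by mean CPM and 1 by mean RPKM instead of 2. For F3 HFHS+Veh against CD+Veh it was 2 by median CPM, 0 without the largest libraries and 0 without contradictory labels instead of 1, and Ddx58 turned to -0.0625 in the last, an alternative chosen after seeing the data. Among the pooled F1 and F3 log2 ratios of the genes described, 137 alternative values were classed as moved from the main value. Another 1 was classed as reversed in sign and 93 as the same, so most pooled ratios depended on the alternative chosen. Among F2 log2 fold changes, 40 of 456 alternative values turned in sign. By limma on oocyte means, which moved the median of all genes by -0.27, -0.13 and -0.14 in the order of comparisons above, CD+DHT against CD+Veh gave -0.37 for Ddx58, -0.73 for Mavs, -0.19 for Eif2ak2 and -0.49 for Oas1d. It gave -0.0521 for Ddx58 in HFHS+Veh against CD+Veh. In CD+DHT against HFHS+Veh it gave -0.24 for Tlr3, -0.37 for Eif2ak2, -0.10 for Oas1d, -0.0878 for Oas1e and 0.154 for Oas1h. The stricter oocyte filter gave 0.0027 for Oas1e in CD+DHT against CD+Veh and 0.00368 for Oas1d in HFHS+Veh against CD+Veh. Without contradictory labels HFHS+Veh against CD+Veh gave -0.98 for Eif2ak2 and 0.20 for Oas1d, and CD+DHT against HFHS+Veh gave 0.00154 for Ddx58 and -0.0803 for Oas1d. With each animal left out in turn, CD+DHT against CD+Veh ran from -0.0463 to 0.439 for Ddx58, -0.0944 to 0.314 for Oas1d and -0.23 to 0.21 for Oas1e. HFHS+Veh against CD+Veh ran from -1.02 to 1.01 for Eif2ak2 and -0.17 to 0.20 for Oas1d. CD+DHT against HFHS+Veh ran from -0.19 to 0.37 for Tlr3, -0.44 to 0.15 for Ddx58, -0.19 to 0.15 for Mavs, -0.29 to 1.76 for Eif2ak2 and -0.079 to 0.322 for Oas1d. Beyond fewer samples in those settings, the cause was not tested. Leaving out oocytes rich in cumulus markers removed 1 F3 CD+Veh oocyte and gave no other F1 or F2 value. Ifih1 had a count in 8 of 157 libraries and Eif2ak2 in 66, and the part of depth in their zeros was not tested.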
